A study of Homo sapiens with 2 samples.

Results

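MicroRNA host genes are long noncoding RNA (lncRNA) genes whose transcripts carry microRNA hairpins, and they were taken here as every GENCODE 44 gene whose symbol starts with MIR and ends with HG, without MIRLET7BHG. There were 81 of them among 54483 genes on chromosomes 1 to 22 and X, of which 80 were annotated as lncRNA and 1, MIR3171HG, as a transcribed processed pseudogene. MIRLET7DHG had no GRCh38 position in the annotation used and was not analysed here. The rule itself reads symbols and no measured value, but it was set with earlier results of these data known. As a check of the label, 62 of the 81 genes held at least 1 of 104 microRNA hairpins of the RefSeq table on their own strand. The others, among them MIR155HG and MIR22HG, held no listed hairpin, which does not show that they carry no microRNA. All hairpin counts below cover listed hairpins only.

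The study profiled ING5 by ChIP-seq in untreated HepG2 cells, an established human liver cancer line, to find the genes that the protein occupies. It comprised 1 library made with an antibody against ING5, with 12416160 fragments, and 1 of input DNA from HepG2 without immunoprecipitation, with 9915170 fragments. The input entered only as the control of the peak calls. There was no replicate of either library, so intervals cover counting error only, no test was run and every comparison is a description of this peak list. Of 8608 peaks, 8589 lay on chromosomes 1 to 22 and X. No hepatocyte marker gene out of 18, among them ALB, HNF4A and FOXA2, had a promoter peak, which allows a share of up to 18.5% (exact 95% interval). Over all protein-coding genes the share was 30.9%, above that bound. None of 6 blood markers and none of 6 fibroblast and endothelial markers had a promoter peak either, which allows up to 45.9% for each. These lists therefore neither bear out the labelled line nor point to another. All positions are GRCh38.

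A microRNA begins as a hairpin in a longer primary transcript. DROSHA and DGCR8 cut the hairpin out in the nucleus, XPO5 exports it, DICER1 trims it to a short duplex, and 1 strand is loaded into an Argonaute protein. Bases 2 to 8 of that strand, the seed, pair with target messenger RNAs, which are then silenced. The protein ING5 binds methylated histone H3 through its plant homeodomain and works within histone acetyltransferases of the MYST family.

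The hosts with the most significant ING5 peaks, also by fold enrichment, were MIR23AHG, MIR31HG and MIR193BHG, while by fragments at the summit MIR4458HG came before MIR193BHG. The mature strands usually taken as the functional product of these hosts, and of other hosts with a peak that belong to well-studied families or share a seed with one, are shown to make clear which seeds lie behind the occupied genes. They are RefSeq sequences (GRCh38.p14), written 5′ to 3′ with the seed in capitals.
miR-23a-3p (MIR23AHG): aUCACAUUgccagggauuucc
miR-27a-3p (MIR23AHG): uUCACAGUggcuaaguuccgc
miR-24-3p (MIR23AHG): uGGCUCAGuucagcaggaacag
miR-31-5p (MIR31HG): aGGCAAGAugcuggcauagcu
miR-193b-3p (MIR193BHG): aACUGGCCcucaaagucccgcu
miR-365a-3p (MIR193BHG): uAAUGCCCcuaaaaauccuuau
miR-365b-3p (MIR365BHG): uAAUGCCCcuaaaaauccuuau
let-7i-5p (MIRLET7IHG): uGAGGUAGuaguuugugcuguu
let-7c-5p (MIR99AHG): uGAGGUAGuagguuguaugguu
miR-4500 (MIR4500HG): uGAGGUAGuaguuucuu
miR-99a-5p (MIR99AHG): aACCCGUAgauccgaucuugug
miR-34a-5p (MIR34AHG): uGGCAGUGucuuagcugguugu
miR-29b-3p (MIR29B2CHG): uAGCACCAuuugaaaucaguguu
miR-29c-3p (MIR29B2CHG): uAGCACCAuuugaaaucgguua
miR-9-5p (MIR9-3HG): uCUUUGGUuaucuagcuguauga
miR-1-3p (MIR1-1HG): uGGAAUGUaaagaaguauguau
miR-133a-3p (MIR1-1HG): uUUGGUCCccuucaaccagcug

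An ING5 peak was found at 20 of the 81 host genes (24.7%, exact 95% interval 15.8 to 35.5), against 1851 of 18511 other lncRNA genes (10.0%, 9.57 to 10.4) and 33.8% of protein-coding genes. A gene counted when a summit lay within 1000 bp of any of its annotated transcription start sites (TSSs) or inside its body. With promoter summits alone, 14 host genes counted (17.3%, 9.78 to 27.3), against 1614 other lncRNA genes (8.72%, 8.32 to 9.13) and 6126 of 19819 protein-coding genes (30.9%, 30.3 to 31.6). Another 6 host genes had a summit in the body only (7.41%), against 237 other lncRNA genes (1.28%). The interval of the hosts lay above that of other lncRNA genes in each of these 3 counts, and the promoter share of the hosts lay below that of protein-coding genes.

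**Figure D1:**
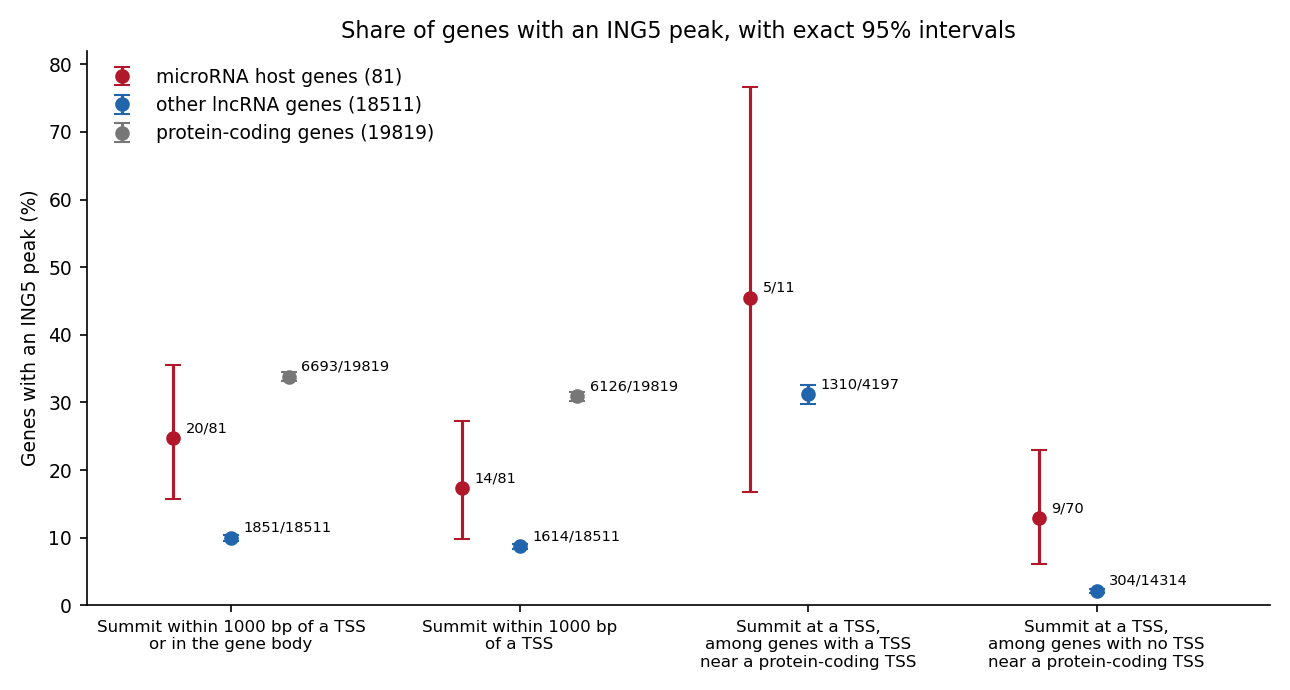
Share of genes with an ING5 peak (%, points, with exact 95% intervals as bars and counts beside them) for microRNA host genes, other lncRNA genes and protein-coding genes under 4 definitions. Host genes lie between other lncRNA genes and protein-coding genes in the first 2, and among genes with no TSS near a protein-coding TSS 9 of 70 hosts had a promoter peak, against 304 of 14314 other lncRNA genes.

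Host genes were larger and had more annotated starts than most lncRNA genes. Whether either property bears on their share of peaks was not tested. The median span was 25065 bp in host genes and 6182 bp in other lncRNA genes, and the median number of TSSs was 5 and 1. Hosts with a promoter peak had a median of 8 TSSs, and hosts without any peak a median of 4. Among genes with a single TSS, 3 of 17 hosts (17.6%) and 852 of 12468 other lncRNA genes (6.83%) had a promoter peak. With 2 to 5 TSSs the counts were 3 of 27 hosts (11.1%) and 468 of 4386 others (10.7%), and with 6 or more they were 8 of 37 hosts (21.6%) and 294 of 1657 others (17.7%). The exact intervals of the hosts held the share of the others in all 3 classes: 3.80 to 43.4, 2.35 to 29.2 and 9.83 to 38.2. Within these classes of all genes, the promoter shares of hosts and other lncRNA genes were therefore not told apart.

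By span, any peak was found at 4 of 27 hosts up to 10000 bp (14.8%), against 9.21% of other lncRNA genes of that size. From there up to 100000 bp it was 9 of 29 hosts (31.0%), against 10.6% of others, and above 100000 bp 7 of 25 (28.0%), against 13.4%. Only in the middle class did the interval of the hosts, 15.3 to 50.8, lie above the share of the others. Among other lncRNA genes with a span between the quartiles of the host spans, 855 of 8345 had a peak (10.2%). Other lncRNA genes that hold an annotated microRNA on their strand, without the name of a host gene, had a peak at 36 of 121 (29.8%, 21.8 to 38.7). That interval overlaps that of the named hosts and that of the hosts with a listed hairpin, 17 of 62 (27.4%, 16.9 to 40.2). A promoter peak was found at 24 of these 121 other genes (19.8%), among them ENSG00000275180, which holds let-7i and has the same summits as MIRLET7IHG. The median span of the 121 genes was 45292 bp and their median number of TSSs 3.

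Promoter peaks of host genes stood at a protein-coding promoter in 9 of 21 cases (42.9%, 21.8 to 66.0), against 1480 of 1806 for other lncRNA genes (81.9%). Among peaks with no raised local background, a restriction chosen after seeing the data, the share for hosts was 57.1%, so whether most of their peaks lie at or away from such promoters depends on that setting. Of the 14 hosts with a promoter peak, 5 had at least 1 such peak within 1000 bp of a protein-coding TSS (35.7%, 12.8 to 64.9), against 1316 of 1614 other lncRNA genes (81.5%, 79.6 to 83.4). The 2 intervals did not overlap. A start within 1000 bp of a protein-coding TSS was present in 11 of 81 hosts (13.6%), against 22.7% of other lncRNA genes. Of these 11 hosts, 5 had a promoter peak (45.5%, 16.7 to 76.6), against 1310 of 4197 other lncRNA genes (31.2%), a share within the interval of the hosts. Among genes with no TSS within 1000 bp of a protein-coding TSS, 9 of 70 hosts had a promoter peak (12.9%, 6.05 to 23), against 304 of 14314 others (2.12%, 1.89 to 2.37). With 6 or more TSSs in that class the counts were 5 of 32 hosts (15.6%, 5.28 to 32.8) and 70 of 1100 others (6.36%), so that the interval of the hosts held the share of the others. With a single TSS they were 2 of 14 hosts (14.3%, 1.78 to 42.8) and 155 of 10014 others (1.55%, 1.32 to 1.81). Here the interval of the hosts lay just above the share of the others but overlapped their interval. With 2 to 5 TSSs they were 2 of 24 hosts (8.33%, 1.03 to 27.0) and 79 of 3200 others (2.47%), within the interval of the hosts.

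The 35 peaks at host genes had a median strength close to that of the whole list. Their median pileup, the number of fragments over the summit, was 11 (range 8 to 25), against 12 for all peaks. Their median fold enrichment over local background was 6.47 (4.72 to 14.03), the same as the 6.47 of all peaks, and 15 lay below that median, 7 at it and 13 above it. Pileup, fold and width are values of the authors' peak caller and serve only to describe the list. The 3 peaks among the 1000 most significant (8.57% of 35, against 11.5% of all peaks) were the main peaks of MIR23AHG, MIR31HG and MIR193BHG. Peaks at least 1000 bp wide numbered 5 (14.3%, against 5.83% of all peaks). They lay at MIR193BHG, with 2185 and 1343 bp, at MIR23AHG, with 1559 bp, and at MIR31HG and MIR762HG, with 1119 bp each.

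**Figure D2:**
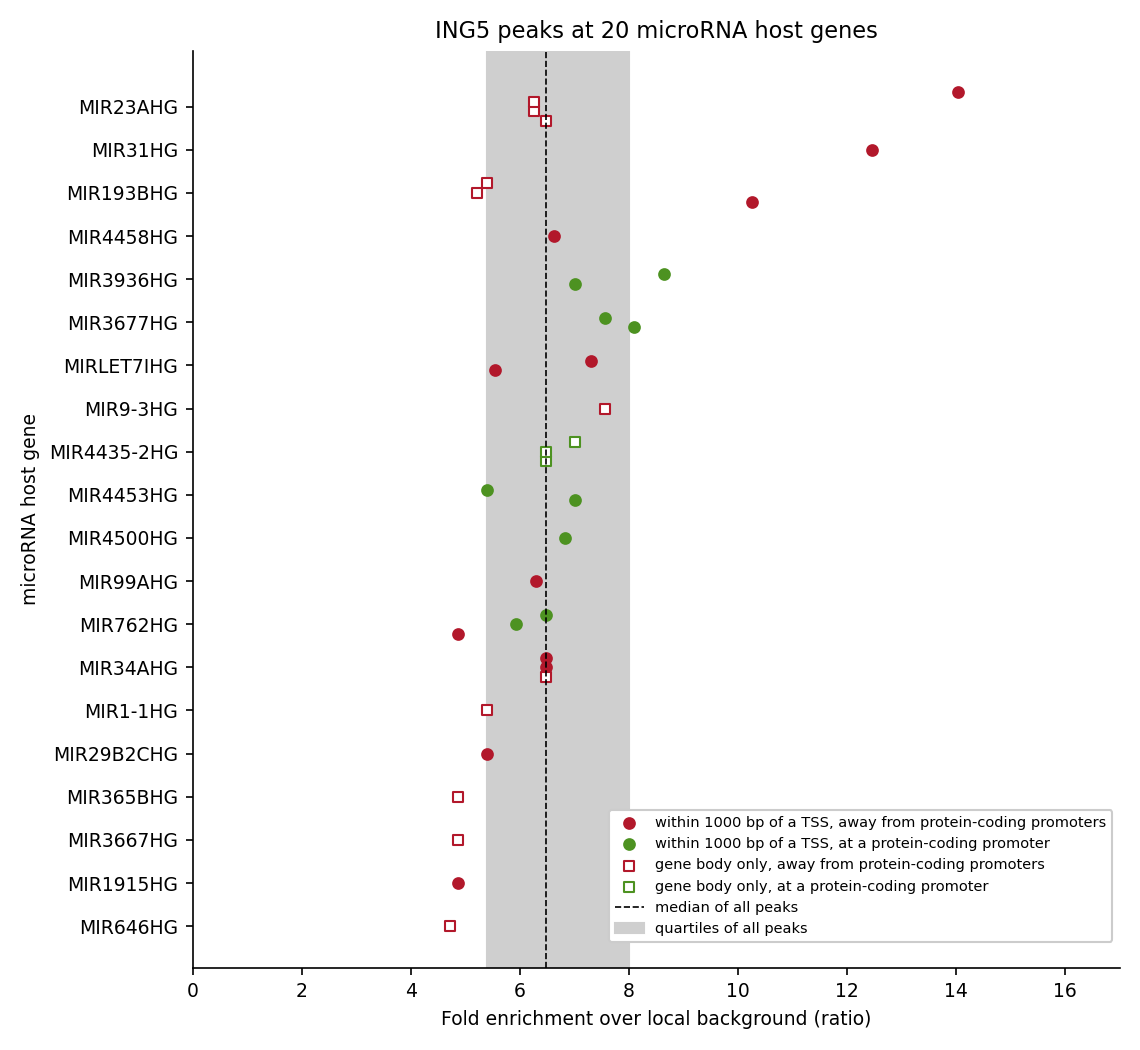
Fold enrichment of each of the 35 peaks (ratio, linear axis) at the 20 microRNA host genes with a peak, ordered by their most significant peak and spread vertically within a gene for visibility. Filled circles lie within 1000 bp of a TSS and open squares in the body only; green marks peaks at a protein-coding promoter. MIR23AHG at 14.03, MIR31HG at 12.4 and MIR193BHG at 10.3 stand farthest to the right of the band between the quartiles of all peaks, 5.40 and 8.01, and MIR3936HG at 8.63 and MIR3677HG at 8.09 just beyond it.

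MIR23AHG, a gene with 1 annotated TSS on the minus strand of chromosome 19, carries the cluster of miR-23a, miR-27a and miR-24-2, which is active in many tissues. It had the highest summit of all host genes and 4 peaks in all. The main one ran from 13841149 to 13842707 with its summit 472 bp downstream of the TSS, 25 fragments, 14.03-fold enrichment and rank 239 of the list. The next 3 had their summits 2348, 4901 and 5856 bp downstream, with 11 fragments each and 6.26-fold, 6.26-fold and 6.47-fold enrichment. The last of them lay 449 bp before the hairpin of miR-23a, the first hairpin of the cluster. No summit was found in the rest of the gene, which spans 19049 bp.

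MIR31HG holds miR-31, a microRNA with altered levels in many cancers, on the minus strand of chromosome 9. It had 1 peak, from 21558652 to 21559770, with 24 fragments, 12.4-fold enrichment and rank 365. The summit lay 284 bp downstream of the nearest of 21 TSSs and 47176 bp before the hairpin. The nearest protein-coding TSS to any start of the gene was 5479 bp away.

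MIR193BHG, on the plus strand of chromosome 16, carries miR-193b and miR-365a, a pair studied in mouse fat and muscle differentiation. Its main peak was the widest at any host gene and ran from 14302482 to 14304666, with 18 fragments, 10.3-fold enrichment and rank 828. The summit lay 9 bp upstream of a TSS, and the peak extended over the hairpin of miR-193b at 14303967 to 14304049. A second peak, with 14 fragments over a raised local background of 1.88 fragments and 5.21-fold enrichment, lay between the 2 hairpins. The last, with 9 fragments and 5.40-fold enrichment, had its summit 378 bp past the hairpin of miR-365a. The lowest background in the list, taken as the genome-wide one, was 0.853 fragments.

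MIR34AHG, whose product miR-34a is induced by p53 and represses genes of cell division and survival, had 3 peaks around an internal start. All 3 had 11 fragments and 6.47-fold enrichment. Their summits lay 513 bp upstream, 1 bp upstream and 1012 bp downstream of the nearest of its 5 TSSs. The lncRNA LNCTAM34A has a start within 1000 bp of the same 3 summits, so they cannot be assigned to 1 of the 2 genes. The 5′ end of the host lay about 16 kb upstream (16510 bp before the middle summit) and carried no peak.

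MIRLET7IHG, host of let-7i, a member of the family that restrains oncofetal genes, had 2 peaks at its single TSS. One had 10 fragments and 5.54-fold enrichment with its summit 67 bp upstream. The other had 15 fragments and 7.30-fold enrichment with its summit 639 bp downstream, and it covered the hairpin of let-7i at 62603686 to 62603769. The lncRNA ENSG00000275180 has a start within 1000 bp of both summits, and LINC01465 has one near the downstream summit.

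**Figure D3:**
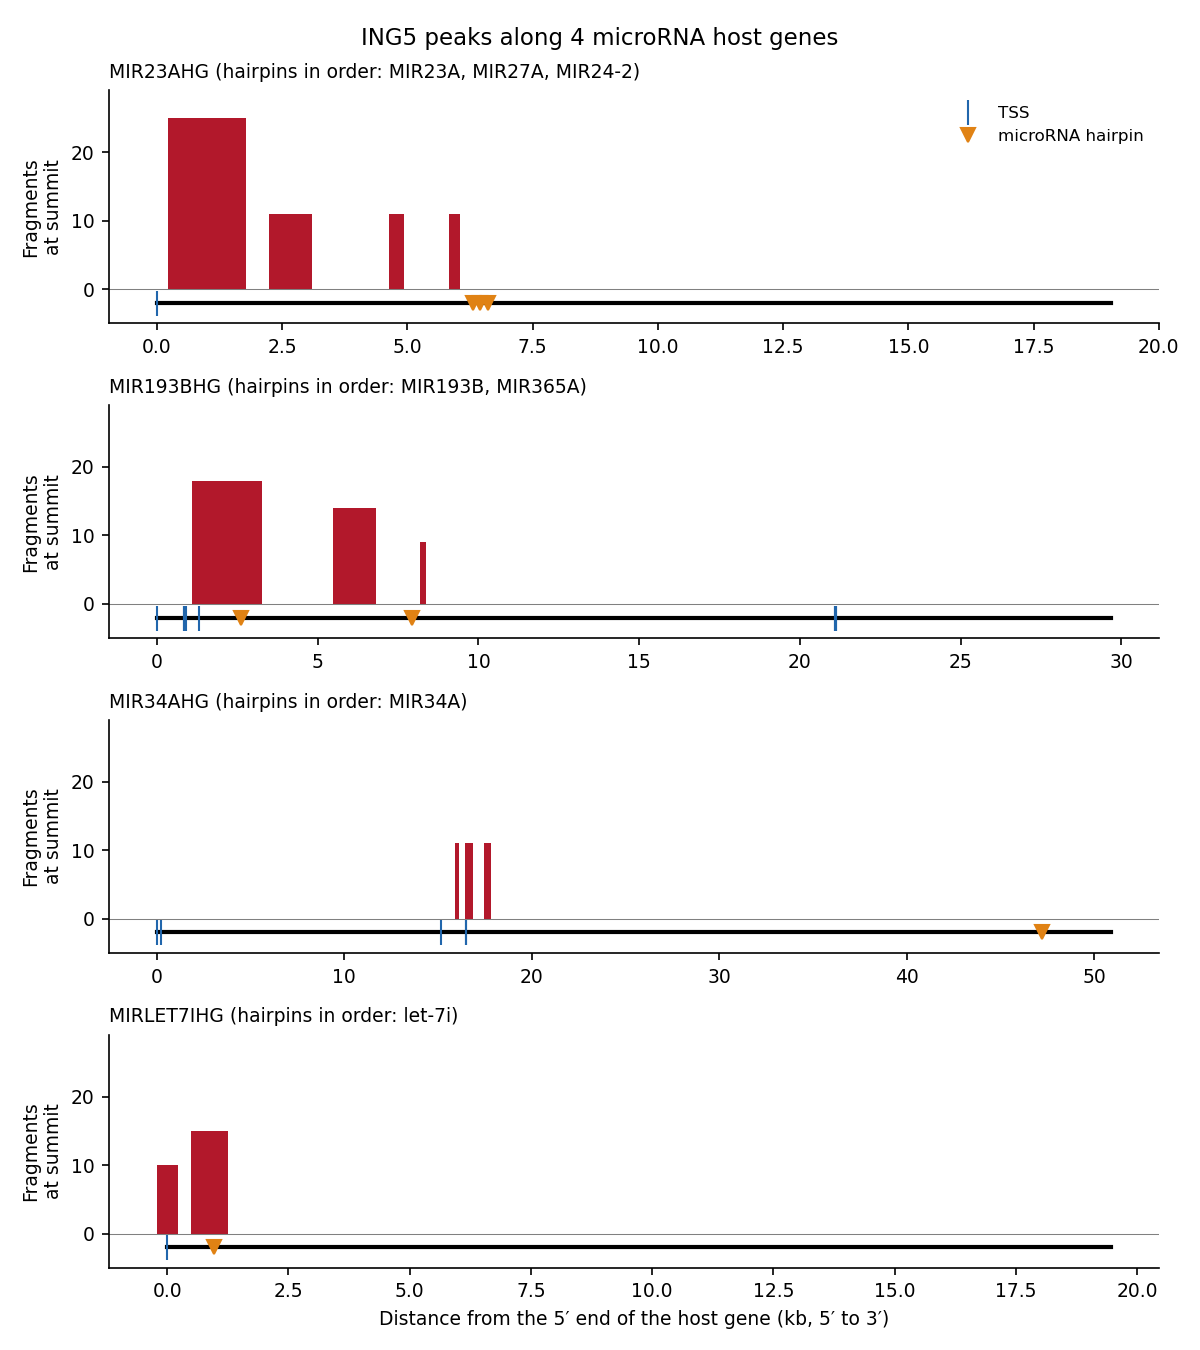
ING5 peaks along MIR23AHG, MIR193BHG, MIR34AHG and MIRLET7IHG, as bars of the peak's width and its fragments at the summit (y axis, fragments), by distance from the 5′ end of the gene (x axis, kb). Blue ticks are annotated TSSs and orange triangles microRNA hairpins: the highest bar of MIR23AHG, with 25 fragments, stands at its start, and a bar covers a hairpin in MIR193BHG and in MIRLET7IHG.

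Another 4 hosts had a promoter peak only away from protein-coding promoters, with 8 to 23 fragments. MIR29B2CHG, host of miR-29b-2 and miR-29c, which repress collagen genes, had 9 fragments and 5.40-fold enrichment 489 bp downstream of a TSS and 66178 bp before the nearer hairpin. MIR99AHG, host of miR-99a and let-7c, had 14 fragments over 1.39 fragments of background, 6.29-fold, 17 bp downstream of 1 of its 196 TSSs. MIR1915HG had 8 fragments and 4.86-fold enrichment 29 bp downstream of a TSS. MIR4458HG on the short arm of chromosome 5 had 23 fragments, but over a background of 2.62 fragments, which made 6.62-fold. The lncRNAs ENSG00000249159 and LINC02226 have a start within 1000 bp of that summit. Its pileup is close to those of MIR31HG and MIR23AHG, while its fold is near the median of the list.

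Of the promoter summits of host genes, 9 of 21 lay at a protein-coding promoter. MIR3936HG shared both of its peaks, with 15 and 12 fragments (8.63-fold and 7.01-fold), with SLC22A5, the carnitine transporter gene. MIR3677HG, host of miR-3677 and miR-940, shared both of its peaks, with 14 and 13 fragments (8.09-fold and 7.55-fold), with the splicing factor gene RNPS1. MIR4453HG shared 12 and 9 fragments (7.01-fold and 5.40-fold) with FBXW7, which encodes the substrate receptor of a ubiquitin ligase, and the smaller peak covered the hairpin of miR-4453. MIR4500HG shared its 1 peak, with 12 fragments and 6.82-fold enrichment, with the neuronal membrane protein gene SLITRK5. MIR762HG shared 2 peaks, with 11 and 10 fragments (6.47-fold and 5.94-fold), with BCL7C, a subunit gene of chromatin remodelling complexes. The remaining peak of MIR762HG, 67 bp upstream of its first start, had 13 fragments over a background of 1.88 and lay at no protein-coding promoter. For the shared peaks the list cannot tell the lncRNA start and the protein-coding start apart.

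The 6 hosts with summits in the body only had 8 to 13 fragments. MIR4435-2HG spans 517362 bp and encloses BCL2L11, which encodes the death protein BIM. All 3 of its peaks, with 11, 11 and 12 fragments, lay within 1000 bp of a TSS of that gene, at 85937 bp or more from the nearest start of the host. MIR9-3HG had 13 fragments and 7.55-fold enrichment, and its summit lay past the hairpin of miR-9-3, a neural microRNA. MIR1-1HG, host of the muscle microRNAs miR-1-1 and miR-133a-2, had 9 fragments and 5.40-fold enrichment 2099 bp before the hairpin of miR-133a-2. MIR365BHG had 8 fragments and 4.86-fold enrichment 1235 bp downstream of its TSS, MIR3667HG the same values 1098 bp downstream, and MIR646HG 8 fragments and 4.72-fold enrichment. The summits of MIR34AHG at 1012 bp, MIR3667HG and MIR365BHG lay just outside the promoter window, and the farthest summit inside it was that of MIRLET7IHG at 639 bp.

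Summits at host promoters lay on both sides of the start. The median distance to the nearest TSS of the host was 284 bp over 21 summits (range −595 to 639 bp, positive downstream), against 381 bp at 1813 summits of other lncRNA genes and 251 bp at 6527 of protein-coding genes. The median of the hosts follows the window and the peaks kept: it was 67 bp with a window of 200 bp, 453 bp with one of 3000 bp, and 175.5 bp without summits at protein-coding promoters, against 347 bp at other lncRNA genes on that last count. Downstream lay 11 of 21 host summits (52.4%, 29.8 to 74.3), against 43.4% for other lncRNA genes and 74.7% for protein-coding genes, whose share was just above the interval of the hosts. Without summits at protein-coding promoters, 7 of 12 lay downstream (58.3%, 27.7 to 84.8), against 63.3% at other lncRNA genes. Within 100 bp of a TSS lay 8 of 21 host summits (38.1%), against 13.3% for other lncRNA genes and 22% for protein-coding genes. Hosts have more TSSs than other lncRNA genes (median 5 against 1), and whether this bears on the distance to the nearest was not tested.

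**Figure D4:**
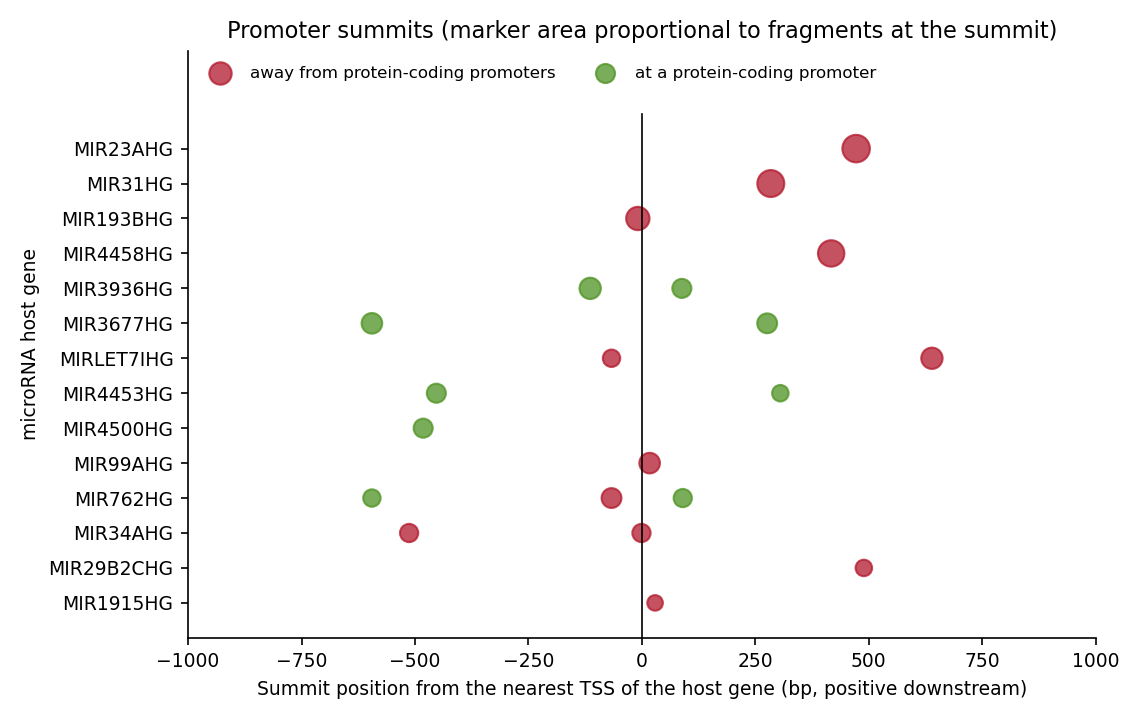
Position of the 21 promoter summits of 14 microRNA host genes relative to the nearest TSS of the host (x axis, bp, positive downstream), with marker area proportional to the fragments at the summit. The summits run from −595 to 639 bp, 11 of them downstream, and the largest markers, MIR23AHG and MIR31HG, stand at 472 and 284 bp downstream.

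Of 31 peaks in hosts with a listed hairpin, the hairpin nearest to the summit lay downstream of it for 24, and the median distance was 3182 bp. Only 8 summits lay within 1000 bp of a listed hairpin, and 3 listed hairpins were covered by a peak: those of let-7i, miR-193b and miR-4453. The occupied hosts carried 26 of the 104 listed hairpins, and those with a promoter peak 18.

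Several microRNAs are encoded more than once, while others, such as those of the let-7 and miR-34 families, are related but distinct. In some of these groups a peak was called at the host of 1 member and not of another, a difference that was not tested. These groups cover only the named host genes. Relatives in other genes, such as let-7g in WDR82 and let-7f-2 in HUWE1, are not counted. Among the named hosts, the let-7 seed GAGGUAG is carried by microRNAs of 5. Of them, 3 had a peak (MIRLET7IHG, MIR99AHG and MIR4500HG), and MIR100HG and MIRLET7A1HG had none; over all hosts the share with a peak was 24.7%. The peak of MIR4500HG was the one shared with SLITRK5, and that of MIR99AHG lay 344116 bp before the hairpin of miR-99a, the nearer of its hairpins, at 1 of 196 TSSs. MIR193BHG and MIR365BHG, which hold the 2 genes for the miR-365 seed AAUGCCC, both had one, with 18 and 8 fragments at the highest summit. MIR9-3HG had a peak and MIR9-1HG none, MIR1-1HG had one and MIR133A1HG none, and MIR34AHG had one and MIR34BHG, host of miR-34b and miR-34c, none (the last pair was added after its values were seen). Both hosts of miR-181a, MIR181A1HG and MIR181A2HG, lacked a peak. Since the weakest peaks rest on 8 fragments, a host without a peak may hold ING5 below what this depth can show.

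Among the 61 hosts without a peak were those of the best-known liver microRNAs. MIR122HG, host of the dominant hepatocyte microRNA, had its nearest summit 225792 bp from a start, and MIR194-2HG, host of miR-192 and miR-194-2, at 14428 bp. MIR17HG, host of the growth-promoting miR-17-92 cluster, had its nearest summit 46476 bp downstream of a start. No peak was found at the blood hosts MIR155HG and MIR223HG, at the epithelial host MIR200CHG, at MIR302CHG of pluripotent cells, at the neural MIR124-1HG and MIR124-2HG, or at MIR22HG, MIR210HG and MIR222HG. The hosts without a peak whose start came nearest to a summit were MIR4422HG at −1983 bp, MIR497HG at 5413 bp and MIR200CHG at 6146 bp. MIR22HG, MIR130AHG, MIR3659HG, MIR302CHG, MIR4733HG and MIR378D2HG each have a start within 1000 bp of a protein-coding TSS and had no peak. These hosts were picked out after their values were seen. Of all hosts with such a start, 5 of 11 had a promoter peak (45.5%), against 31.2% of other lncRNA genes with one.

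RefSeq promoters, from 250 bases before to 50 after the start, were matched by symbol to 61 of the 81 hosts. The median ratio of observed to expected CpG was 0.700 over 19 promoters of hosts with a promoter peak (range 0.0866 to 0.993) and 0.378 over 50 promoters of hosts without a peak (0 to 1.07), and the ranges overlapped. Of these 19 promoters, 6 belong to MIR99AHG, with ratios between 0.1 and 0.481. Hosts whose promoter peaks all lay at a protein-coding promoter had ratios of 0.912 (MIR3677HG), 0.893 (MIR3936HG), 0.793 (MIR4453HG) and 0.309 (MIR4500HG). The promoters of hosts without a peak also include several of MIR100HG, with ratios between 0.125 and 0.476. The 8 promoters of hosts with a summit in the body only had a median ratio of 0.554. A ratio over 0.6 was found in 10 of 19 (52.6%) and in 11 of 50 (22%), against 37.3% of promoters of other lncRNA genes and 48.8% of all promoters. The letters GGGCGG, read on both strands, stood in 8 of 19 (42.1%) and in 14 of 50 (28%), against 34.0% at other lncRNA genes and 45.0% of all promoters. The letters CCAAT stood in 42.1% and 42%, and TATAAA in 15.8% and 14%. The letters CACGTG were in none of the 19 and in 4% of the 50, against 7.26% of all promoters.

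A summit fell inside the RefSeq promoter of 3 hosts, and these 3 are printed because the point of highest coverage lies on the sequence itself. Peaks with a summit elsewhere also covered 300 of the 300 bases of the promoter of MIR762HG, 241 of MIR3936HG, 158 of MIR3677HG, 105 of MIR4453HG and 22 of MIR31HG. Each runs 5′ to 3′ on the strand of the gene, with GGGCGG or its complement CCGCCC in capitals; MIR1915HG has neither. The positions on GRCh38.p14 are chr1:9182289-9182588 on the minus strand for MIR34AHG, chr12:62602493-62602792 on the plus strand for MIRLET7IHG and chr10:21497211-21497510 on the minus strand for MIR1915HG.
MIR34AHG: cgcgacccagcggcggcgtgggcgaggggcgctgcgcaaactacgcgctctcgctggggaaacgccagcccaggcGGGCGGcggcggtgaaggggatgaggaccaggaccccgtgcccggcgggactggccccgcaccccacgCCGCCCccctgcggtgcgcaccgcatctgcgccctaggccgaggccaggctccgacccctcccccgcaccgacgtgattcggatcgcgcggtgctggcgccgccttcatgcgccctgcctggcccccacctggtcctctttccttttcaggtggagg
MIRLET7IHG: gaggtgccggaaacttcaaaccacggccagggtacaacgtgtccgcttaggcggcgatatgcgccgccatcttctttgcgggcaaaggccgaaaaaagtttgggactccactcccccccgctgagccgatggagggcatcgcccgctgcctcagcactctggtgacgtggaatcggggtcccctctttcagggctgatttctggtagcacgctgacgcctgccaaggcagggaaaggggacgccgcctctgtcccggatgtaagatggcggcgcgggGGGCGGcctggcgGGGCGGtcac
MIR1915HG: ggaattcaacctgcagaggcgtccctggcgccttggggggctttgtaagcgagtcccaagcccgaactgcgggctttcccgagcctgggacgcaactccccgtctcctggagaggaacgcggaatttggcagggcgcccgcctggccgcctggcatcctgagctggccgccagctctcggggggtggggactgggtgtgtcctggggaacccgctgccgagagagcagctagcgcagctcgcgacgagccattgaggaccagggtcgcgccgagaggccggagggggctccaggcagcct
The CpG ratios of these 3 promoters were 0.905, 0.856 and 0.700. The summits had 11, 10 and 8 fragments. By contrast the RefSeq promoter of MIR23AHG, with a ratio of 0.735 and GGGCGG on either strand 4 times, lay outside the peak, which began downstream of it. That of MIR193BHG, with a ratio of 0.0866, lay upstream of the peak at the internal start.

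Among protein-coding genes, the occupied share was higher in hosts of a microRNA. Of 787 protein-coding genes with an annotated microRNA on their strand, 352 had a promoter peak (44.7%, 41.2 to 48.3), against 5774 of 19032 others (30.3%, 29.7 to 31.0). The protein-coding hosts had a median of 9 TSSs, against 5, and a median span of 59358 bp, against 26734 bp. Their shares were not compared within classes of either. The most significant peaks stood at HOXA9 (miR-196b) with 49 fragments and 26.98-fold enrichment, SMC4 (miR-15b and miR-16-2) with 47 and 23.5-fold, PTBP1 (miR-4745) with 40 and 22.1-fold, ATXN10 (miR-4762) with 37 and 20.5-fold, and NR2F2 (miR-1469) with 36 and 19.96-fold. All 5 exceeded the 25 fragments of MIR23AHG.

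The genes that process microRNAs were mostly occupied: 19 of 24 had a promoter peak (79.2%, 57.8 to 92.9), against 6107 of 19795 other protein-coding genes (30.9%). In the nucleus, DROSHA had 20 fragments over a raised background of 2.86, which made 5.43-fold, and its partner DGCR8 had 12 and 7.01-fold. The exporter gene XPO5 had 24 fragments and 13.5-fold enrichment, and RAN, which drives that export, 13 and 7.55-fold. DICER1, which makes the mature duplex, had no promoter peak, while its cofactor gene TARBP2 had 13 fragments over 1.88, 4.86-fold. Of the Argonaute genes, AGO3 had 18 fragments and 10.3-fold enrichment, AGO2 and AGO4 16 and 9.17-fold each, and AGO1 none. The most significant peak of this gene list was that of ADAR, an RNA-editing enzyme that acts on some hairpins, with 26 fragments and 13.7-fold enrichment. PRKRA, TNRC6B and TNRC6C had none, and the other genes of the list with a peak had 8 to 16 fragments.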

How the data were processed

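ING5 occupancy was measured by ChIP-seq in HepG2 cells, with 1 ING5 library and 1 input library. Per the file headers, the authors ran MACS2 2.1.1.20160309 on read pairs with the p threshold 1e-05 and a fragment size of 183 bp. Per the submitters' processing notes, fastp 0.19.6, Bowtie2 and deepTools were also used. Pileup as deposited is a signal of fragment coverage, the deposited fold enrichment a ratio of pileup to local background, and the deposited significance a −log10 p-value, by which peaks were ranked. The labels name GRCh37, but the summits near (up to 1000 bp from) a protein-coding TSS numbered 6527 (76.0%) at GRCh38 positions and 1175 (13.7%) at GRCh37 positions. GRCh38 positions were therefore used, from the original exon locations that GENCODE 44 records.

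The members, gene lists and comparisons were chosen with earlier results of these data known. All hosts with a peak were named. Of the hosts without one, those of a fixed list of well-known microRNAs and the 3 with a start nearest to a summit were named, and of the protein-coding hosts the 5 with the most significant peak. Some hosts without a peak that were not on that list were named too. They belong to groups of related microRNAs or have a start near a protein-coding TSS. Hairpin, mature and promoter sequences came from RefSeq (GRCh38.p14). Hairpins of that table replaced annotation entries, which lack GRCh38 positions. Local background was recovered from pileup and fold with a pseudocount of 1. Shares have exact Clopper-Pearson 95% intervals from scipy 1.17.1 in Python 3.11.15, and genes are not replicates. The assignment of summits to genes was tested on simulated data.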

Additional observations from a re-analysis of the deposited data

How the results depend on the processing

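The alternatives kept fewer peaks, changed the promoter window or changed the genes compared. A restriction to peaks with no raised local background, and the omission of peaks at protein-coding promoters, were chosen after seeing the data. No paired analysis was possible because each group has 1 library. With the 1000 most significant peaks, 3.70% of host genes had a peak, all at promoters, against 1.60% of other lncRNA genes (1.43% at promoters). The 3 host peaks left there, none at a protein-coding promoter (0%), had medians of 24 fragments, 12.4-fold and 1559 bp, and 12.5% of microRNA processing genes and 9.53% of protein-coding hosts had a promoter peak. With the list cut at its median rank, 16.0% of hosts had a peak, against 5.86% of other lncRNA genes (5.27% at promoters). The median fold of host peaks was then 7.01, and 28.6% of protein-coding hosts had a promoter peak. That cut fell among peaks tied at rank 4124, of which only a part was kept. MIR34AHG counted through its peaks in this tie, while MIR762HG, with a peak of the same 11 fragments and 6.47-fold enrichment, did not. The share of hosts at this cut therefore depends in part on the order of tied peaks. These settings keep fewer and stronger peaks by construction. The share of other protein-coding genes was not computed with them. Whether processing genes and protein-coding hosts exceed other protein-coding genes there was not tested.

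With a window of 200 bp, 8.64% of hosts had a promoter peak, against 2.50% of other lncRNA genes (6.48% with body peaks). There 22.2% of host promoter peaks were shared with a protein-coding gene, and 41.7% of processing genes and 20.5% of protein-coding hosts had a peak. The share of other protein-coding genes was not computed with that window either. With peaks at no raised background, 11.1% of hosts had a promoter peak, against 5.27% of other lncRNA genes (6.15% with body peaks). Without peaks at protein-coding promoters, 18.5% of hosts and 2.59% of other lncRNA genes had a peak, and 12.3% and 1.84% a promoter peak. Against other lncRNA genes that hold a microRNA, the share to compare with is 29.8% in place of 10.0%, above the 24.7% of the hosts. Of the 62 hosts with a listed hairpin, 27.4% had a peak, with an interval (16.9 to 40.2) that held the 29.8%. The median distance of host summits to a TSS ranged from 67 to 453 bp over the windows tried. A window of 3000 bp, any overlap with the window, canonical starts alone and hosts of type lncRNA alone left every share within 1.5 times its value. With 1 library and a weakest host peak of 8 fragments, depth limits what the absence of a peak can show.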
